A study of Mus musculus with 51 samples.

Results

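The response to chronic intermittent ethanol vapor (CIE) was compared between astrocytes and total homogenate of the prefrontal cortex, gene by gene, as the difference of 2 differences: CIE minus control in astrocytes, less CIE minus control in total homogenate. It rests on 34 of the 51 libraries of the series, 1 astrocyte and 1 homogenate library from each of 17 mice, 8 control and 9 CIE, chosen by the treatment and preparation codes of their labels. The remaining 17 libraries are microglia and enter only 1 alternative fit, with all 51 libraries. All mice were adult male C57BL/6J. CIE mice were injected with ethanol at 1.6 g/kg and inhaled ethanol vapor (15 to 20 mg/L of chamber air) 16 h a day in 4 weekly cycles, and control mice were injected with saline and breathed air in like chambers. Both groups received pyrazole at 1 mmol/kg, an inhibitor of alcohol dehydrogenase that slows the clearance of ethanol, so every comparison is between mice that had pyrazole. A small part of each minced cortex was set aside as total homogenate. The rest was dissociated, cleared of myelin on Percoll and passed over beads against ACSA2, a surface antigen of astrocytes.

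Astrocytes take up transmitter and potassium, feed neurons and wrap synapses and vessels. Homogenate mixes the RNA of all cells of the tissue, so a change in a cell type that supplies little of a transcript can be hard to see in it, and in bulk RNA fewer cells of a type and less RNA per cell cannot be told apart. Responses of the interferon system, in which cytokine receptors and nucleic acid sensors switch on antiviral genes through STAT and IRF factors, can occur in all brain cells. Notch signaling works between neighbouring cells: a ligand such as Dll1 on one cell leads to cleavage of a Notch receptor on the next, whose freed part joins the DNA-bound factor RBPJ and raises repressors of the Hes and Hey families.

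The labelled astrocyte libraries were checked against defining markers, in CPM (assigned counts scaled to a common library size by TMM). In each of the 17 mice, the sum of 6 astrocyte markers was higher in the bead preparation than in the homogenate, at a median of 1.97-fold, and the sum of 5 neuronal markers was lower in all 17, at a median of 0.00988-fold. Markers of oligodendrocytes (median 7.09-fold), microglia (5.7-fold), endothelium (3.58-fold) and border macrophages (2.91-fold) were also higher in all 17 mice. Those of oligodendrocyte precursors (1.33-fold) were higher in 15 of 17. The preparation was thus depleted of neuronal RNA and enriched for RNA of glia, vessels and border macrophages in general, and "astrocytes" below stands for this preparation. Between treatments, the microglia markers summed to 1262 to 5383 CPM (median 3162) in control and 2247 to 5228 CPM (median 3330) in CIE astrocytes (two-sided exact permutation test over mice, p = 0.546), and the neuronal markers to 35.4 to 278 CPM (median 64.3) and 29 to 132 CPM (median 52.3; p = 0.343 by the same test). The sum of 3 neutrophil markers (S100a8, S100a9 and Cxcr2) was 0 to 4.42 CPM in control and 1.22 to 61.2 CPM in CIE astrocytes (two-sided exact permutation test, p = 0.00247). In the homogenate this sum spanned 1.13 to 8.33 CPM in control and 2.09 to 295 CPM in CIE mice (same exact test, p = 0.146). A fuller list of 15 neutrophil genes had no such rise in astrocytes. It summed to 51.1 to 198 CPM (median 124.8) in control and 83.4 to 336.9 CPM (median 120.2) in CIE astrocytes (same exact test, p = 0.381). The part of these cells in the results was not tested. Assigned counts ranged from 2082289 to 10041788 per astrocyte library and from 5042926 to 15594154 per homogenate library.

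Fitted alone, each preparation had its own set of genes past an adjusted p of 0.05 (edgeR quasi-likelihood test, Benjamini-Hochberg adjustment over all genes tested), termed called here. In astrocytes 661 of 12878 genes were called (5.13%), 375 of them higher (2.91%) and 286 lower (2.22%) in CIE mice. In total homogenate 35 of 13982 genes were called (0.25%), 27 higher (0.193%) and 8 lower (0.0572%). Of the 12562 genes tested in both preparations, 353 were called higher (2.81%) and 283 lower (2.25%) in astrocytes, and 27 (0.215%) and 7 (0.0557%) in the homogenate. The test of the difference between the responses called 1 gene of these 12562 (0.00796%), Ptpn5, and 851 genes (6.77%) had an unadjusted p under 0.05, 348 with the more positive (2.77%) and 503 with the more negative astrocyte response (4.0%). The standard error of the difference had a median of 0.177 on the log2 scale, against 0.115 for the astrocyte and 0.123 for the homogenate response. For 6513 genes (51.85%) the approximate 95% interval of the difference lay within 0.5 of 0, so for the other genes a difference of that size was not excluded.

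Over the 12562 genes the 2 responses were related. Pearson's r of the log2 fold changes was 0.535 and Spearman's rho 0.404 across genes, 63.26% of genes had the same sign in both, and the least squares slope of the homogenate on the astrocyte response was 0.426. Genes are not independent replicates and both preparations come from the same mice, so these values describe this set of libraries and carry no p. Among the 11922 genes called in neither preparation r was 0.414, and without the genes of the interferon, GTPase and MHC lists it was 0.496. The mouse numbers fall in 3 ranges, 03 to 08 (4 mice), 19 to 26 (7 mice) and 35 to 41 (6 mice). When the responses were computed within a range and set against each other, r between preparations was 0.264 to 0.375 for the same mice and 0.0535 to 0.346 for different mice. Within a single preparation, r between different mice was -0.0017 to 0.483. The responses of different mice thus spread as widely within a preparation as between the preparations.

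**Figure D1:**
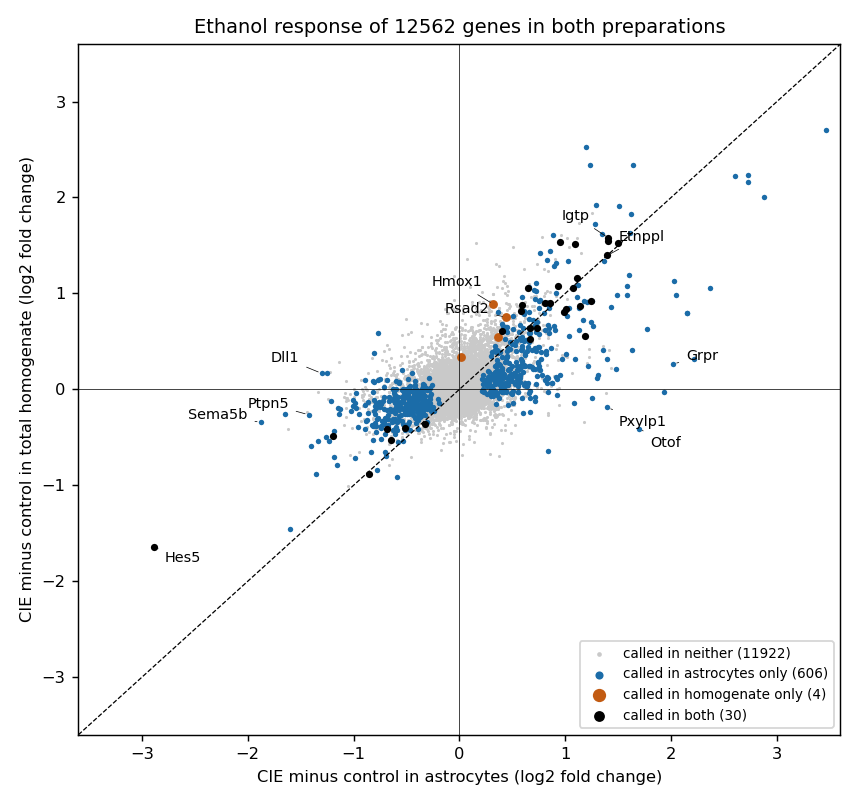
Log2 fold change (CIE minus control) of 12562 genes in astrocytes (x axis) and total homogenate (y axis). Each point is a gene, the dashed line marks equal responses, and the 606 genes called in astrocytes only lie mainly between that line and the horizontal axis, whereas the 30 genes called in both lie on either side of the line, with Hes5 the lowest at -2.88 and -1.65.

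Genes called in astrocytes mostly had the same sign in the homogenate with a smaller size. Of the 636 such genes tested in both, 553 (86.95%) had the same sign, 558 had the larger absolute log2 fold change in astrocytes, and r with the homogenate response was 0.773. For 236 genes the homogenate had the same sign with an unadjusted p under 0.05, and none of the 83 genes with the opposite sign had such a p. On the log2 scale the 353 higher genes had medians of 0.60 in astrocytes and 0.26 in the homogenate, and the 283 lower genes -0.53 and -0.17. The astrocyte values of these genes were selected for size and the homogenate values were not, so the smaller homogenate medians are a description. All 34 genes called in the homogenate had the same sign in astrocytes, with r = 0.939, and 30 of them were called there too. These 30 genes are 88.24% of the homogenate calls and 4.717% of the astrocyte calls. Of the 30, 15 had the larger response in astrocytes and 15 in the homogenate. They were selected by their response in both preparations, so this split is a description and not a contrast with the wider set.

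The 30 shared genes, 23 higher and 7 lower in CIE mice, fall into a few roles. The interferon group holds Irf7, a master regulator of the type I interferon response, Ifit3, Rtp4, Ifi27, Slfn2, Lgals3bp, the immunity-related GTPases Igtp and Irgm1, and Tap1, which carries peptides to MHC class I. A further 6 encode enzymes of detoxification or redox chemistry: Ephx1 (microsomal epoxide hydrolase), Mgst1, Sult1a1, Aox1, Xdh and Srxn1 (sulfiredoxin). Tsc22d3 and Ddit4 are induced by glucocorticoids, and Atf5 is a factor of the stress response. Etnppl, Gjb6 (connexin 30) and Slc1a4 (a neutral amino acid transporter) are astrocyte-rich genes. Hes5 and Nrarp are targets of Notch. Insig1 restrains sterol synthesis, Arntl (BMAL1) is a core activator of the circadian clock, Hspa1a is an inducible heat shock protein, Slc30a10 exports manganese, and Cdh19, Caskin2 and A330074K22Rik complete the set. Hes5, Etnppl, Ephx1, Atf5 and Tsc22d3 were called in both preparations in all 22 alternatives run on each, as 21 of the 30 were in astrocytes and no other gene in the homogenate. The astrocyte call held in 4 of 22 for Rtp4, and the homogenate call in 5 for Hspa1a, 7 for Ddit4 and Caskin2, 9 for Arntl, 11 for Tap1, 13 for Gjb6, 14 for Igtp and 16 for Irf7. Of the 30 genes, 22 had a level at least 2-fold higher in astrocytes than in the homogenate, against 19.43% of all genes tested.

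Irf7 was between 5.35 and 20.2 CPM (median 11.9) in control and between 13.8 and 40.5 CPM (median 26.1) in CIE astrocytes. In the homogenate it was between 3.42 and 6.37 CPM (median 3.69) in control and between 5.11 and 13.1 CPM (median 8.15) in CIE mice. CIE mice were the higher ones in both preparations, with some overlap in each. The log2 fold change was 1.07 in astrocytes (standard error 0.214, edgeR adjusted p = 0.00914) and 1.06 in the homogenate (standard error 0.195, adjusted p = 0.0216), and the 95% interval of the difference ran from -0.54 to 0.51. Igtp was between 9.19 and 19.9 CPM (median 14.2) in control and 15.4 and 85.2 CPM (median 29.2) in CIE astrocytes, and in the homogenate between 3.73 and 10.1 (median 6.7) and 7.02 and 34.5 CPM (median 14.8). Its log2 fold changes were 1.41 and 1.58. Lgals3bp, a secreted glycoprotein, was between 80.2 and 138 CPM (median 118) in control and 168 and 259 CPM (median 195) in CIE astrocytes with no overlap, as in 0.406% of all genes. Its log2 fold changes were 0.86 in astrocytes and 0.90 in the homogenate, and the interval of the difference ran from -0.41 to 0.30.

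Promoters are shown for 3 interferon-stimulated genes of this set, since promoters hold the sequences that interferon regulatory factors read. The windows are RefSeq sequences of GRCm38.p6 on the gene's strand, from 250 bases before to 50 bases after 1 start, for the 3 shared genes in which an interferon-stimulated response element core (GAAA, any 2 bases, then GAAA, on either strand) was found. Capitals mark the matches, which overlap in Irgm1. The letters were found in 3 of the 19 higher shared genes with a window, and not in Irf7, Lgals3bp or Tap1. Of all 32851 windows, counted by window and not by gene, 3.443% held them. A match is a description and not a shown site of binding. The Ifit3 window is chr19:34583279-34583578 (+) and lies inside the gene's full RefSeq span, which begins upstream at 34583119, so it is not at the outermost start. The others are Irgm1 at chr11:48871371-48871670 (-) and Igtp at chr11:58199306-58199605 (+).
Ifit3: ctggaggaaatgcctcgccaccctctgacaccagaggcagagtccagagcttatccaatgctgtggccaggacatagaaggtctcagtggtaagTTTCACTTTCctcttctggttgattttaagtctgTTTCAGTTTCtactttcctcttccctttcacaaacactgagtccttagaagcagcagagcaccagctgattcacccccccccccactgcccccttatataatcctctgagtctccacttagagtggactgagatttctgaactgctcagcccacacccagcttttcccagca
Irgm1: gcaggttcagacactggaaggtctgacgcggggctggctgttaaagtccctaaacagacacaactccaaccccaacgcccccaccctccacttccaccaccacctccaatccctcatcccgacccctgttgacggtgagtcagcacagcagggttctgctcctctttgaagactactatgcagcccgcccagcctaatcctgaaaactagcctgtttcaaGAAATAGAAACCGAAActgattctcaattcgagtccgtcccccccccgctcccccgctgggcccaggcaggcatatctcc
Igtp: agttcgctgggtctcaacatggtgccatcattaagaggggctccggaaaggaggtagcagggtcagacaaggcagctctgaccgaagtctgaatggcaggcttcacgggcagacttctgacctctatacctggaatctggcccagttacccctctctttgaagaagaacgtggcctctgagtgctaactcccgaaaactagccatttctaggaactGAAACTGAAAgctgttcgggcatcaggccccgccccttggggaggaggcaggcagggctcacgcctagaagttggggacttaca

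Etnppl, an enzyme of phosphoethanolamine breakdown that astrocytes express strongly, had near-equal estimates in the 2 preparations. Etnppl, Gjb6, Nrarp and Irf7 were named partly for having among the smallest differences of the called genes. Their near-equal estimates are therefore a description. Etnppl rose in both preparations. It was between 40.4 and 88 CPM (median 69.4) in control and 76.8 and 301 CPM (median 148) in CIE astrocytes. Homogenate levels were between 17.7 and 38.5 CPM (median 27.2) in control and 48.9 and 124 CPM (median 61.6) in CIE mice, with no overlap, as in 0.111% of all genes. The log2 fold change was 1.40 in each (standard errors 0.237 and 0.188, edgeR adjusted p = 0.00433 and 0.00179), and the interval of the difference ran from -0.60 to 0.58. Gjb6, which forms astrocyte gap junctions, rose by 0.66 and 0.64, with an interval of the difference from -0.35 to 0.37. Ephx1 rose by 1.143 (standard error 0.147) in astrocytes and 0.87 (standard error 0.103) in the homogenate, and Atf5 by 1.25 and 0.92. Tsc22d3, which encodes the glucocorticoid-induced leucine zipper, rose by 0.93 and 1.08.

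Hes5, a repressor that Notch induces in neural progenitors and astrocytes, fell the most of the shared genes. It was between 17.5 and 67.2 CPM (median 47.9) in control and 1.8 and 24.6 CPM (median 5.82) in CIE astrocytes, where 1 CIE mouse reached the control range. In homogenate it lay between 18.1 and 24.8 CPM (median 21.5) in control and 3.91 and 8.95 CPM (median 7.48) in CIE mice, with no overlap, as in 0.111% of all genes. The log2 fold change was -2.88 in astrocytes (standard error 0.353, edgeR adjusted p = 0.000827) and -1.65 in the homogenate (standard error 0.159, adjusted p = 4.58e-05). The difference was -1.25 (standard error 0.406, unadjusted p = 0.00404, edgeR adjusted p = 0.51), so a larger fall in astrocytes did not pass the test across all genes. Nrarp, a feedback inhibitor of Notch, fell by 0.85 and 0.89, with an interval of the difference from -0.38 to 0.41. The Hes5 window (chr4:154960673-154960972, +) likewise begins inside the gene's full span, which starts at 154960626, and holds the RBPJ-type heptamer GTGGGAA on either strand 2 times, in capitals, and 6.383% of all windows hold it. The heptamer was found in 1 of the 6 lower shared genes with a window, not in Nrarp, and in 1 of the 19 higher ones, Etnppl.
Hes5: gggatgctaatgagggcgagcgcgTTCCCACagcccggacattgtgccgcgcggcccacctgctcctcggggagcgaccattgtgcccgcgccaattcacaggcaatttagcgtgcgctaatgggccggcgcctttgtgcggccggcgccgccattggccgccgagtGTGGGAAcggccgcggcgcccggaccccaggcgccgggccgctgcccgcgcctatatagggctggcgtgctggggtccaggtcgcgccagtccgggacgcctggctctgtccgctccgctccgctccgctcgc

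Another 3 shared genes had an unadjusted p under 0.05 for the difference. Srxn1, which restores peroxiredoxins, rose by 1.18 in astrocytes and 0.56 in the homogenate (difference 0.61, standard error 0.201). Hspa1a fell by 1.19 and 0.49 (difference -0.73, standard error 0.307), and it shares nearly all of its sequence with Hspa1b, so reads of the 2 may be split between them. Arntl fell by 0.68 and 0.41 (difference -0.29, standard error 0.134). None passed after adjustment (edgeR adjusted p = 0.523, 0.639 and 0.697). The 4 homogenate calls that astrocytes lacked were Hmox1, Nr1d2, Dbp and Rsad2. Hmox1, heme oxygenase 1, rose by 0.89 in the homogenate (standard error 0.139) with a log2 fold change of 0.32 in astrocytes (standard error 0.233), and the 95% interval of the difference ran from -1.16 to 0.00. Nr1d2 (REV-ERB beta), a repressor of Arntl, rose by 0.34 in the homogenate and had 0.01 in astrocytes, and the unadjusted p of the difference was 0.00526 (edgeR adjusted p = 0.533).

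The departures from the common response were sought among all genes by the test of the difference. Ptpn5 (chr7:47077795-47134026, GRCm38.p6), which encodes the neuronal phosphatase STEP, was the only call, with the lower response in astrocytes. It was between 5.58 and 16.2 CPM (median 10.6) in control and 2.43 and 6.64 CPM (median 3.3) in CIE astrocytes. In the homogenate it was between 181 and 270 CPM (median 239) in control and 166 and 234 CPM (median 194) in CIE mice. The CIE mice were thus the lower ones in astrocytes with a small overlap, and overlapped widely in the homogenate. The log2 fold change was -1.42 in astrocytes (standard error 0.212) and -0.26 in the homogenate (standard error 0.0879), and the difference was -1.17 (standard error 0.214, edgeR adjusted p = 0.0454). Computed within each mouse, the log2 astrocyte to homogenate ratio was -5.53 to -3.85 (median -4.46) in control and -6.02 to -5 (median -5.76) in CIE mice. These are the values that singled the gene out among all genes, so they are a description. Within the 3 ranges of mouse numbers the difference was -0.68, -0.86 and -1.53. With the mouse as a block the difference was -1.142 and its adjusted p 0.0936, so that no gene was called. With all 51 libraries in the fit the Ptpn5 response difference was not called (-1.15, edgeR adjusted p = 0.196) and the Otof response difference was the only call (adjusted p = 0.0403). The call was lost without any 1 of 9 mice and when mice 35, 36 and 39, whose astrocyte libraries had the most neuronal marker RNA, were left out (-1.10, adjusted p = 0.0891).

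**Figure D2:**
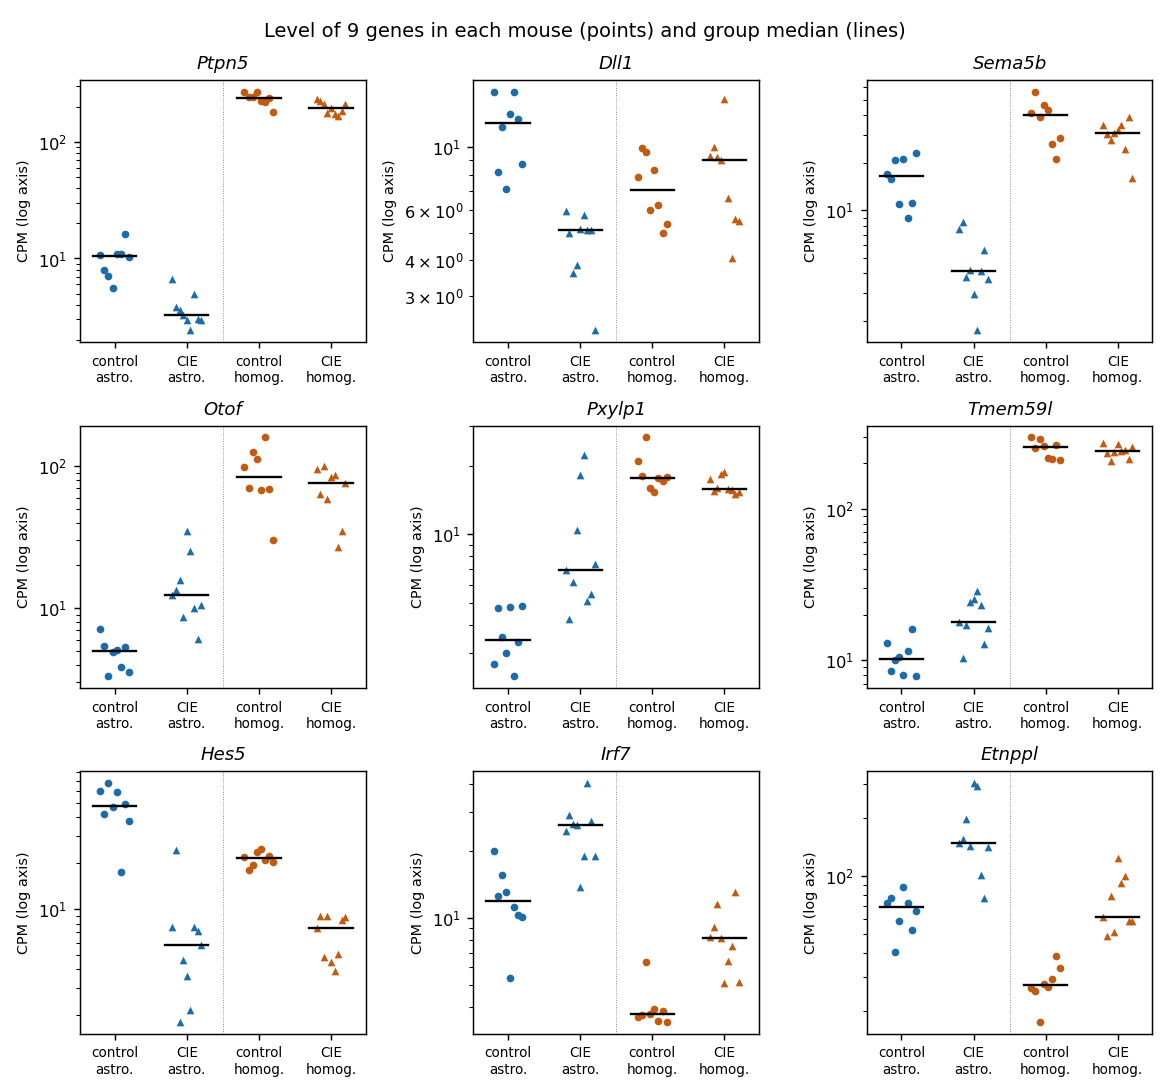
Level of 9 genes in every mouse (CPM, log axis; circles control, triangles CIE; blue astrocytes, orange total homogenate; lines are group medians). Ptpn5, Dll1, Sema5b, Otof, Pxylp1 and Tmem59l shift between treatments in astrocytes with little shift in the homogenate, while Hes5, Irf7 and Etnppl shift in both.

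Beyond this call, 10 more genes had an adjusted p under 0.1, and the 10 smallest p-values in each direction are described here without a further test, since they were taken from the same comparison. All 20 genes had the larger absolute response in astrocytes, 18 were called there and none in the homogenate, where their absolute log2 fold changes were 0.03 to 0.41. The sign of the difference was the same in all 3 ranges of mouse numbers for all 20. These genes were selected over the same mice, so the shared sign is a description and not a replication. Of the 20, 17 had the lower level in astrocytes than in the homogenate, against 50.14% of all genes, and 11 were at least 2-fold lower, against 17.15% of all genes. With the mouse as a block the adjusted p among the 20 ran from 0.0621 (Otof) to 0.439 (Grpr). With DESeq2 in place of edgeR 18 of them were among 19 calls, and with a covariate for the 3 ranges 14 were among 16 calls. The exceptions were Ss18l1 with DESeq2 and Tubb3 and Mgll with the covariate.

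Dll1 (chr17:15367354-15376932, GRCm38.p6), the Notch ligand, fell in CIE astrocytes, and its homogenate response did not pass the test. It was between 7.13 and 15.7 CPM (median 12.2) in control and 2.27 and 5.98 CPM (median 5.1) in CIE astrocytes, with no overlap. Astrocyte levels did not overlap in 4 of the 20 genes, which were selected partly on these values, and in 0.406% of all genes. Homogenate levels were between 5 and 9.91 CPM (median 7.07) in control and 4.08 and 14.8 CPM (median 9.03) in CIE mice, with wide overlap. Its difference was -1.48 (standard error 0.3, edgeR adjusted p = 0.0678, and 0.0815 with the mouse as a block), made up of -1.30 in astrocytes and 0.17 in the homogenate. Sema5b (chr16:35541154-35664261), a transmembrane semaphorin that guides axons, was between 8.89 and 22.9 CPM (median 16.4) in control and 1.75 and 8.45 CPM (median 4.16) in CIE astrocytes, again with no overlap. In homogenate it lay between 21 and 56.1 CPM (median 40.1) and 15.9 and 38.9 CPM (median 30.9). Its difference was -1.56 (standard error 0.317, edgeR adjusted p = 0.0678, and 0.0815 with the mouse as a block), from -1.88 and -0.34.

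The other genes with the more negative astrocyte response were Fgf11 (-0.92), an intracellular FGF homologous factor, Cntnap2 (-0.91), an adhesion protein that clusters potassium channels on axons, AI854517 (-0.95), Trim9 (-0.75), a ubiquitin ligase of neurons, Fras1 (-1.40), an extracellular matrix protein, Pcdhgc4 (-0.94), a clustered protocadherin, and Snhg4 (-1.11), a small nucleolar RNA host gene. Trim9 was between 223 and 284 CPM (median 248) in control and 79.8 and 199 CPM (median 128) in CIE astrocytes with no overlap, as in 0.406% of all genes. In the homogenate it was between 334 and 405 CPM (median 359) and 259 and 397 CPM (median 338). Protocadherins of a cluster share exons at their 3′ end, so reads of Pcdhgc4 are uncertain. Snhg4 was at 1.67 to 3.79 CPM in control and 0.40 to 2.69 CPM in CIE astrocytes. Fras1 was at 2.24 to 9.49 CPM in control and 0.85 to 2.98 CPM in CIE astrocytes. The fold changes of both in astrocytes thus rest on few reads.

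Otof had the largest difference of the 20. It encodes otoferlin, a calcium sensor of vesicle release best known from hair cells. It was between 3.32 and 7.17 CPM (median 4.99) in control and 6.07 and 35.1 CPM (median 12.3) in CIE astrocytes. In the homogenate it was between 30.2 and 160 CPM (median 84.4) in control and 26.8 and 100 CPM (median 75.6) in CIE mice. Within the mouse, the log2 astrocyte to homogenate ratio was -5.27 to -2.99 in control and -2.92 to -1.24 in CIE mice, with no overlap, as for 5 genes in all (0.0398%), the others being Mycl, Ndfip1, Esco1 and Srgap3. The difference was 2.10 (standard error 0.461, edgeR adjusted p = 0.0772), from 1.70 in astrocytes and -0.41 in the homogenate. Pxylp1, a phosphatase of proteoglycan synthesis, was between 2.37 and 4.82 CPM (median 3.42) in control and 4.23 and 22.4 CPM (median 6.97) in CIE astrocytes, while in the homogenate it was between 15.4 and 26.7 CPM (median 17.8) and 15.1 and 18.8 CPM (median 15.8). Its difference was 1.57 (standard error 0.336, edgeR adjusted p = 0.0678, and 0.174 with the mouse as a block). Tmem59l was between 7.85 and 16.2 CPM (median 10.2) in control and 10.4 and 28.6 CPM (median 17.9) in CIE astrocytes, against 212 to 297 CPM (median 256) and 206 to 273 CPM (median 240) in the homogenate, a difference of 0.97.

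The other genes with the more positive astrocyte response were Jade2 (0.85) and Hecw2 (0.88), a pair of ubiquitin ligases, Tppp3 (1.15), which binds tubulin, St3gal3 (0.82), a sialyltransferase, Hid1 (0.43), which acts in dense core vesicle formation, Grpr (1.74), the receptor of gastrin-releasing peptide, and B3galnt1 (1.07), a glycosyltransferase. Grpr was low, at 0 to 2.21 CPM (median 0.639) in control and 1.54 to 4.87 CPM (median 3.52) in CIE astrocytes, so its fold change rests on few reads. Tppp3 was the only 1 of the 20 with a level over 2-fold higher in astrocytes, between 67.1 and 150 CPM (median 97.2) in control and 149 and 425 CPM (median 218) in CIE mice, a near separation.

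**Figure D3:**
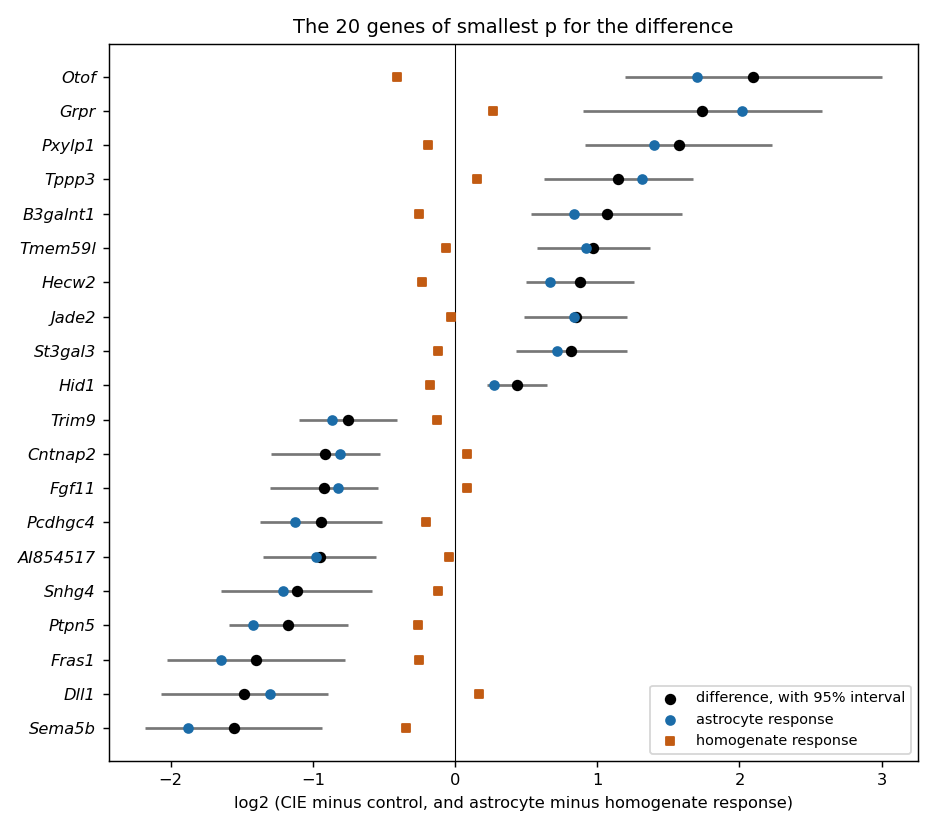
Log2 response in astrocytes (blue circles), in total homogenate (orange squares) and their difference (black points with 95% interval) for the 10 genes with the smallest p in each direction. The homogenate responses lie within 0.41 of 0 for all 20 genes, and the differences lie between -1.56 for Sema5b and 2.10 for Otof.

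How far the homogenate followed the astrocyte response varied with where a gene was expressed. Genes were ordered by the log2 ratio of their level in astrocytes to that in the homogenate, averaged over both treatments. Over all genes, r between the responses was 0.301 for the 990 genes with a ratio below -2 and 0.304, 0.365, 0.579 and 0.709 in the bins from -2 to -1, from -1 to 0, from 0 to 1 and above 1. Of the genes called higher in astrocytes, the 17 with a ratio below -2 had medians of 0.83 in astrocytes and 0.05 in the homogenate, and 58.82% of them had the same sign. The 142 with a ratio above 1 had medians of 0.65 and 0.58, and 96.48% had the same sign. The genes called lower had no such gradient, with homogenate medians from -0.15 to -0.23 in the 5 bins beside astrocyte medians from -0.47 to -0.61. Of the 30 shared genes, 17 of the higher and 5 of the lower had a ratio above 1. The homogenate responses also had a larger standard error there, with a median of 0.165 above 1 and 0.131 below -2. A ratio above 1 does not mean expression by astrocytes alone: it held for 21 of 30 astrocyte genes, but also for all 30 homeostatic microglia genes, all 21 oligodendrocyte and myelin genes and 23 of 24 endothelial and mural genes, and for none of 20 neuronal genes.

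**Figure D4:**
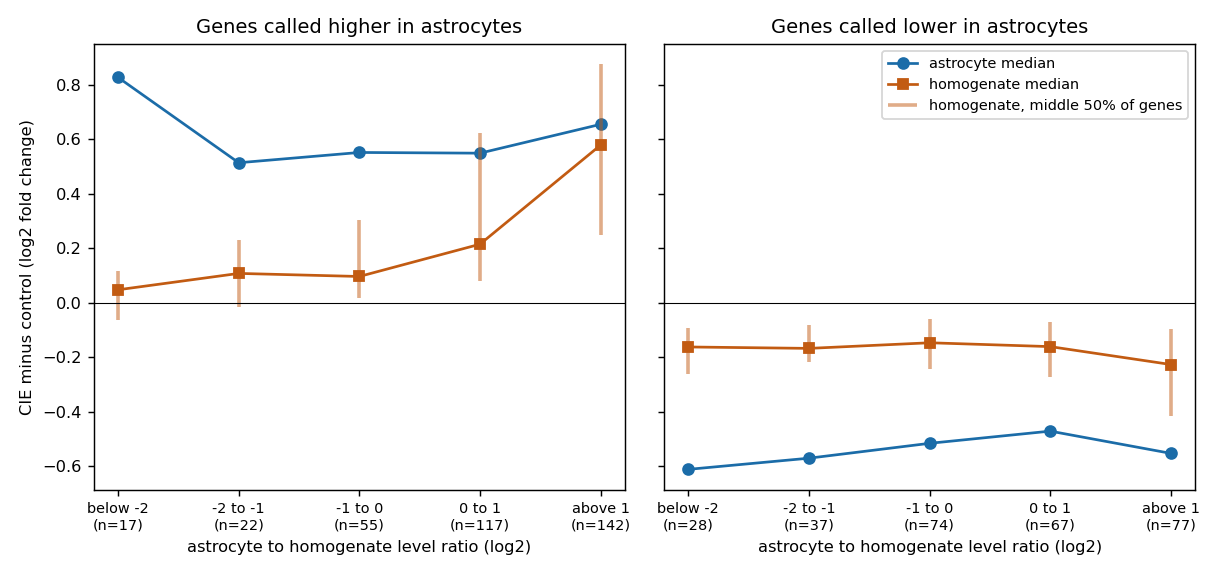
Median log2 fold change in astrocytes (blue) and total homogenate (orange) of genes called higher (left) or lower (right) in astrocytes, by the log2 ratio of the level in astrocytes to that in the homogenate (x axis, with gene numbers). Vertical bars span the middle 50% of genes in the homogenate, whose median rises from 0.05 to 0.58 along the axis for the higher genes and stays between -0.15 and -0.23 for the lower genes.

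Interferon lists were as high in the homogenate as in astrocytes. Of 39 type I interferon-stimulated genes measured, 16 were called higher in astrocytes and 7 in the homogenate, none lower, with medians of 0.47 and 0.70. Over all genes tested in both, the background for this and every list below, 2.81% were called higher and 2.25% lower in astrocytes, 0.215% and 0.0557% in the homogenate, and the medians were 0.00 and 0.01. The median difference was -0.22 and 31 of the 39 genes had the larger response in the homogenate, beside -0.04 and 7270 of 12562 over all genes. All 13 interferon-inducible GTPases had the negative sign of the difference, with medians of 1.11 in astrocytes (5 called) and 1.42 in the homogenate (2 called) and none with an unadjusted p under 0.05. Of 19 MHC class I genes, 8 were called in astrocytes and 1 in the homogenate (medians 0.48 and 0.72). Examples were Samd9l (difference -0.77, edgeR adjusted p = 0.679), Ddx58, the RNA sensor RIG-I (-0.33, adjusted p = 0.687), and H2-Q4 (-0.82, adjusted p = 0.79), whose reads may be shared with other MHC genes. For MHC class II, which is displayed mainly by myeloid cells, 4 of 7 genes were called in astrocytes and none in the homogenate, with medians of 2.60 and 2.01. H2-Aa had 2.73 (standard error 0.558) in astrocytes and 2.23 (standard error 0.699) in the homogenate. The border macrophage markers summed to 35 to 157 CPM in control and 56.1 to 223 CPM in CIE astrocytes (two-sided exact permutation test, p = 0.0812).

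Heat shock proteins, chaperones that keep other proteins folded, had the more negative response in astrocytes for 25 of the 34 measured. Of these, 10 were called lower in astrocytes and 1 in the homogenate, none higher, with medians of -0.24 and -0.06. Of these genes 9 had an unadjusted p under 0.05 for the difference, 8 of them negative (beside 6.77% and 4.0% of all genes). Chordc1, an HSP90 cochaperone, had -0.43 in astrocytes and -0.01 in the homogenate (difference -0.44, standard error 0.125, edgeR adjusted p = 0.363). Hsp90ab1 had -0.51 and -0.08 (difference -0.44), Dnaja1 -0.53 and -0.04 (difference -0.51) and Hsph1 -0.87 and -0.24 (difference -0.65, and -0.33 with the share of reads given to no gene as a covariate). Only the astrocyte libraries went through dissociation and beads. The log2 ratio of the level in astrocytes to that in the homogenate was 4.63 for Hspa1a. Its median was 0.12 over the 34 heat shock genes and 2.64 over the 23 immediate early genes. The part of handling in these differences was not tested.

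Of 29 Notch genes, 7 were called lower in astrocytes and 2 in the homogenate, and 5 had an unadjusted p under 0.05 for the difference (6.77% of all genes). Among the ligands, Dll1 departed as described above. Among the targets, Hes1 had -0.62 in astrocytes and -0.03 in the homogenate (difference -0.60, standard error 0.208, edgeR adjusted p = 0.54), and Hey2 had 0.35 and -0.29 (difference 0.62). Nrarp had near-equal estimates, as given above, and the list's median difference of -0.07 was close to the -0.04 of all genes. Among 31 Wnt genes, 2 were called higher and 2 lower in astrocytes and none in the homogenate, beside 2.81% and 2.25% of all genes in astrocytes. The receptors Fzd1 (0.81 and 0.10, difference 0.69) and Fzd2 (-0.80 and -0.11, difference -0.70) had opposite signs. Of 30 semaphorins and plexins, 4 were called lower in astrocytes, Sema5b first, and none in the homogenate.

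Of 26 glucocorticoid-responsive genes, 11 were called higher in astrocytes and 4 in the homogenate, with medians of 0.57 and 0.35. Among all genes 2.81% and 0.215% were called higher. The list was mixed in its differences, 3 positive and 4 negative at an unadjusted p under 0.05, beside 2.77% and 4.0% of all genes. Fkbp5, a cochaperone of the glucocorticoid receptor, was between 15.4 and 42.6 CPM (median 23.4) in control and 17.4 and 255 CPM (median 84.7) in CIE astrocytes, and between 21.5 and 43.7 CPM (median 28.6) and 30 and 100 CPM (median 60.3) in the homogenate (difference 1.05, standard error 0.498, edgeR adjusted p = 0.714). Arl4d (difference 0.95) and the cell cycle inhibitor Cdkn1a (1.05) were of the same kind. Angptl4, a secreted inhibitor of lipoprotein lipase, had the opposite pattern, 0.10 in astrocytes and 1.07 in the homogenate (difference -0.95, adjusted p = 0.687). Of 19 clock genes, 1 was called in astrocytes and 3 in the homogenate, a single astrocyte call being near the share over all genes. The difference was negative in 14 of 19, beside 7270 of 12562 genes, with a median of -0.23. Rora, an activator of Arntl, had -0.26 in astrocytes and 0.19 in the homogenate (difference -0.46, adjusted p = 0.568).

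Of 24 glycolysis and hypoxia genes, 5 were called lower in astrocytes and none in the homogenate, with medians of -0.17 and -0.05 and 20 negative differences. Adm, the vasodilator adrenomedullin, had -0.80 in astrocytes and 0.38 in the homogenate (difference -1.21, standard error 0.407, edgeR adjusted p = 0.533), and the phosphofructokinases Pfkp and Pfkl had differences of -0.44 and -0.35. In lipid handling, 5 of 18 genes were called higher and 2 lower in astrocytes and none in the homogenate. Mgll, which degrades an endocannabinoid, had -0.76 and -0.14 (difference -0.65), Acsl1 0.34 and 0.07 (difference 0.26), and Lpl, lipoprotein lipase, 0.38 and -0.69 (difference 1.06, standard error 0.338, adjusted p = 0.497).

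**Figure D5:**
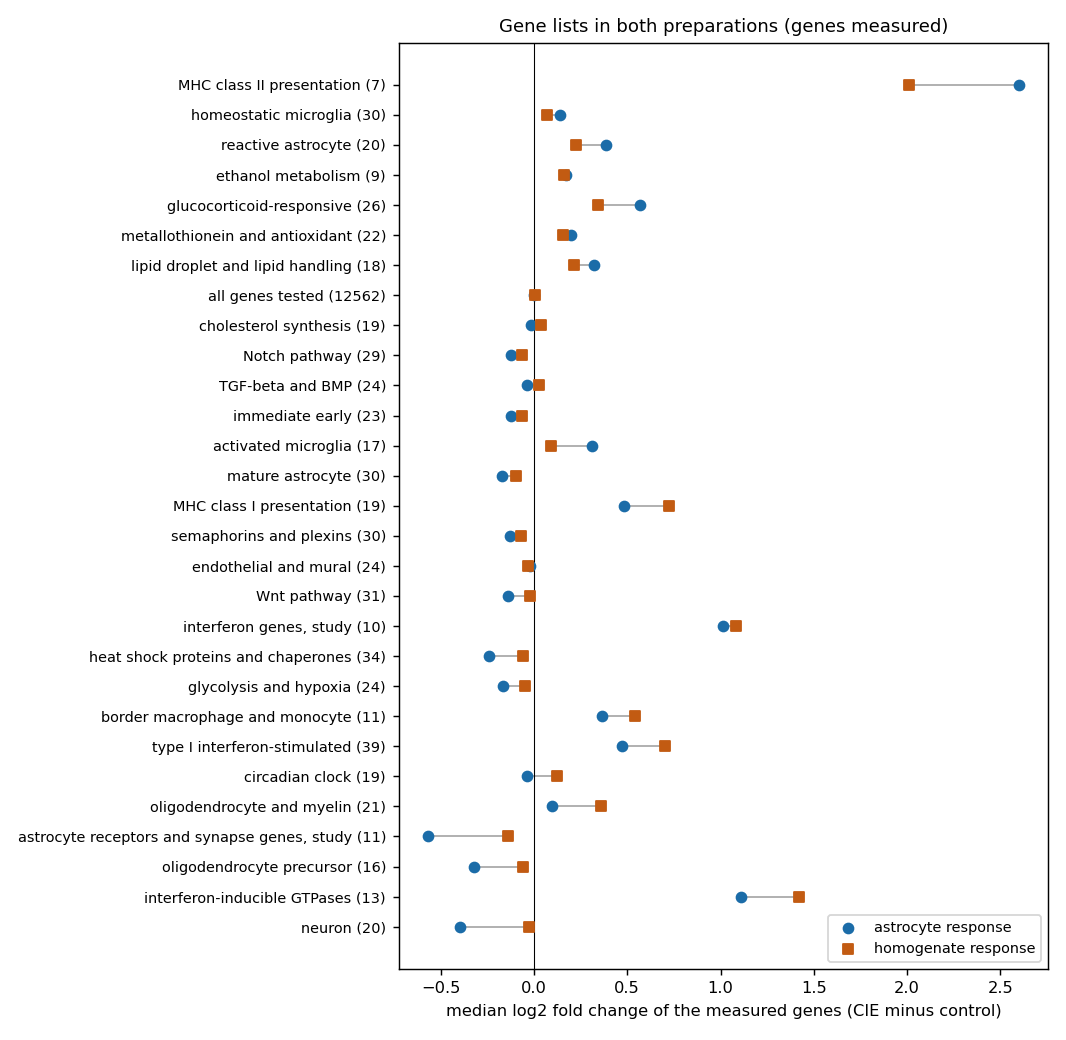
Median log2 fold change (CIE minus control) of the measured genes of 28 lists and of all genes tested, in astrocytes (blue) and total homogenate (orange), ordered by the median of the difference, with gene numbers in brackets. The immune lists lie to the right of 0 in both preparations, and the neuronal list has -0.40 in astrocytes and -0.03 in the homogenate.

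Markers of cell types bear on genes that are far lower in astrocytes than in the homogenate. Of 20 neuronal genes measured, 17 had a negative difference, with medians of -0.40 in astrocytes and -0.03 in the homogenate. Syt1 had -0.92 (standard error 0.449) in astrocytes and -0.00 in the homogenate, and its difference was -0.95 with and -0.17 without mice 35, 36 and 39. For Rbfox3, the NeuN gene, the difference was -0.90 and -0.68 without these mice, and for Grin2b, an NMDA receptor subunit, -0.87 and -0.51. Ptpn5 had -1.17 with and -1.10 without these mice, and Sema5b -1.56 in both cases, while Cntnap2 had -0.91 with and -0.70 without them. Tubb3, a neuronal tubulin, went the other way: it was between 11.8 and 39.5 CPM (median 20.3) in control and 28.6 and 65.2 CPM (median 43.7) in CIE astrocytes, with a difference of 1.20 (standard error 0.304, edgeR adjusted p = 0.225). Of the 11 genes for astrocyte receptors and synapses that the study picked out on the same libraries, so that their direction is not independent evidence, 5 were called lower in astrocytes and none in the homogenate, and all 11 had a negative difference. These include Grm5 (-0.76), Caskin1 (-0.44), Nlgn2 (-0.30) and Chrna7 (-0.65), of which Chrna7 had -0.31 without mice 35, 36 and 39 and 0.77 in mice 03 to 08. Oligodendrocyte and myelin genes had a median of 0.10 in astrocytes and 0.36 in the homogenate, with 19 of 21 differences negative and none with an unadjusted p under 0.05. The homeostatic microglia list had medians of 0.14 and 0.07, with no call in either preparation.

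The other lists had few calls in the homogenate. Of 20 reactive astrocyte genes, 5 were called higher in astrocytes (Cp, Aspg, Serping1, Fbln5 and Fkbp5) and none in the homogenate, with medians of 0.39 and 0.22. Fbln5, an elastic fibre protein, had 1.93 and -0.03 (difference 1.94, standard error 0.712, edgeR adjusted p = 0.544), with a difference of -0.96 in mice 03 to 08 and 1.05 with the replicate block in limma, whereas Serping1, the C1 inhibitor, had 0.75 and 0.92. Of 30 mature astrocyte genes, 2 were called higher and 2 lower in astrocytes and 2 higher in the homogenate (medians -0.17 and -0.10), and none had an unadjusted p under 0.05 for the difference. Of 22 metallothionein and antioxidant genes, 4 were called higher in astrocytes and 3 in the homogenate (medians 0.20 and 0.15). Of 9 ethanol metabolism genes, 1 was called in astrocytes, the aldehyde dehydrogenase Aldh2 (0.35, and 0.30 in the homogenate), and none in the homogenate. Of 17 activated microglia genes, 4 were called in astrocytes and none in the homogenate, and Cd74, the MHC class II invariant chain, had 2.60 and 2.22. In 16 oligodendrocyte precursor genes the medians were -0.32 and -0.06, with 1 call higher and 1 lower in astrocytes and 1 higher in the homogenate. Cholesterol synthesis (19 genes, medians -0.01 and 0.03, 1 call in each preparation), TGF-beta and BMP signaling (24 genes, -0.04 and 0.03, 1 and no call), immediate early genes (23 genes, -0.12 and -0.06, no call), endothelial and mural genes (24 genes, -0.02 and -0.03, no call) and border macrophage and monocyte genes (11 genes, 0.36 and 0.54, 2 and no call) complete the lists, besides 10 interferon genes that the study named on these samples (1.01 and 1.08, 7 and 3 calls) and Csf3r, the single neutrophil gene tested (-0.10 and 0.20).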

How the data were processed

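RNA was measured in the 34 libraries described above. The authors demultiplexed with bcl2fastq 2.17, trimmed with Cutadapt 1.8, aligned to mm10 (STAR 2.5.0a), dropped duplicate reads (Picard 1.141) and counted per gene (HTSeq 0.6.1p1). The deposited values are whole counts for 24421 gene symbols without normalization. Strand setting and annotation release are not given in the sources used here. Samples that the authors left out are not analysed here.

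Groups came from the labels. The response in each preparation and the difference of responses (34 libraries, interaction term, TMM, genes passing filterByExpr in both preparations) were tested with edgeR 4.0.16 in R 4.3.3 (quasi-likelihood, Benjamini-Hochberg, threshold 0.05). The standard error is the absolute log2 estimate over the square root of F. Intervals are 95% with a normal multiplier, so they are approximate and can differ from the test near the threshold. The ratio can be off for estimates near 0. An example is Rhoj (difference 0.0037, standard error 0.579, beside 0.168 and 0.240 for its 2 responses). Levels are TMM-scaled CPM, which are not per length, so they are compared only within a gene. Single values of marker sums and depth were tested by two-sided exact permutation over 24310 splits of the mice. Mice are separate animals, and the same number in both preparations was taken as the same mouse. Own-number libraries' deviations from their group means correlated at -0.201 to 0.387 (median 0.150), above 0.1 in 10 of 17 mice. The correlation was highest with the own number in 6 mice, all of them CIE, and in no control mouse. Unless stated, standard errors, intervals and p of the difference are from the fit without the mouse as block. The blocked adjusted p is given beside it for some genes only. Named genes were the 10 smallest p for the difference in each direction at a mean of at least 1 CPM, the 5 largest and 5 smallest differences among the calls of each preparation, up to 6 genes called in both, the 4 smallest p of each list, and genes the study names. Members and lists were chosen with earlier results of these data known. The other genes called in both preparations or only in the homogenate, the genes without overlap within mice, Ss18l1, Serping1, Aspg, Cp, Aldh2 and Cd74 were named after their values were seen. On simulated data the test of the difference over 12562 genes recovered 22%, 68%, 90% and 96% of true differences of 0.5, 1, 1.5 and 2. The simulated libraries were independent, with no effect of mouse or range of mouse numbers, so recovery in these paired libraries can differ. Alternatives used DESeq2 1.42.0, limma 3.58.1, other scaling, filters, covariates and sets of mice. Python 3.11.15 with numpy 2.4.6, scipy 1.17.1, pandas 2.3.3 and matplotlib 3.10.9 did the rest. Coordinates and promoters are from RefSeq, GRCm38.p6.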

Additional observations from a re-analysis of the deposited data

Results flagged for a closer look

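Groups of 8 or 9 mice were checked for a single mouse far from the others in 72 instances, of which chance gives about 1 in 20, and 2 were found. Control mouse 03 had a log2 astrocyte to homogenate ratio of -3.53 for B3galnt1, apart from the other control mice. CIE mouse 41 had a neutrophil marker sum of 61.2 CPM in its astrocyte library, apart from the other CIE mice. The response of Ptpn5 had a difference of -1.17 between the preparations on the log2 scale, past the threshold in the test of the difference itself (edgeR adjusted p = 0.0454) and not past it in many of the alternatives.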

How the results depend on the processing

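The response difference had 1 call. It had 0 calls (613 to 1198 genes at an unadjusted p under 0.05) with the replicate block in edgeR or limma, TMM within each preparation, no filter, a mean of at least 1 CPM, limma voom, or without mice 35, 36 and 39. DESeq2 gave 19 calls, the range covariate 16, and the share of reads given to no gene as covariate 2 (Jade2 and Tubb3). RLE scaling gave 1 call (Ptpn5), and all 51 libraries 1 call (Otof). Leaving out each mouse gave 0 to 8 calls: 0 without 03, 22, 23, 24, 25, 26, 35, 36 or 37, 4 without 05, 8 without 08, 2 without 19, 3 without 39, 6 without 40 and 7 without 41. The 661 calls of the astrocyte response became 1136 with DESeq2, 1129 with the range covariate, 200 without mice 35, 36 and 39, and 354 (without 26) to 1001 (without 08) when each mouse was left out, with 358 without 22, 417 without 24 and 370 without 36. The 35 calls of the homogenate response became 163, 81 and 8 under the same settings, and 15 (without 20 or 35) to 71 (without 41), with 22 without 03, 17 without 22, 18 without 36 and 53 without 39. The share covariate, leaving out 3 mice together, the pairing of different mice and the subsets by list or call were chosen after seeing the data. The agreement of fold changes (r = 0.535) was 0.561 at a mean of at least 10 CPM, 0.555 with the range covariate, 0.496 without the interferon, GTPase and MHC lists, 0.414 over genes called in neither preparation, 0.569 without mice 35, 36 and 39, and 0.495 to 0.562 without each mouse. Between different mice it was 0.267 and 0.0535 for astrocytes of mice 03 to 08 (homogenate of 19 to 26 and 35 to 41), 0.26 and 0.346 for 19 to 26 (03 to 08 and 35 to 41) and 0.181 and 0.236 for 35 to 41 (03 to 08 and 19 to 26). No gene followed through the alternative runs changed the sign of its response or difference. Median differences near 0 did change sign for the lists of ethanol metabolism (0.03 to -0.05), lipid handling (-0.03 to 0.02) and immediate early genes (-0.07 to 0.003). Within a single range of mice the sign of a gene could differ, as for Fbln5, Chrna7 and Lpl (-0.55 in mice 03 to 08, 1.06 in all mice). The causes were not tested. The only call of the difference, Ptpn5, was lost with the block, and its estimate was -1.31 to -1.04 in all alternatives run. Depth limits low genes such as Grpr, and intervals cover the spread between these mice only.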
